A study of Homo sapiens with 9 samples.

Results

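Si-KDM4C#1 is one of a pair of small interfering RNAs (siRNAs) used to lower KDM4C, and the comparison here is between 3 RNA sequencing libraries from cells given Si-KDM4C#1 and 3 from cells given a Scramble control siRNA. These are 6 of the 9 libraries of the series, chosen by the siRNA named in their labels. The remaining 3, from cells given Si-KDM4C#2, show where the siRNAs differed. They also entered the fit, so the standard errors and adjusted p-values rest in part on their spread. All cells were labelled Huh7, an established human liver cancer cell line, and all were collected 48 h after transfection, with no other treatment and no allele difference named. Levels were deposited as FPKM, that is fragments scaled to exon length and to the total of the library, and 13881 of the 32906 listed genes had a mean of at least 1 FPKM in Scramble or Si-KDM4C#1 and were tested. Each group is a single siRNA in a single cell line, and nothing in the labels says that the 3 libraries of a group came from separate cultures, so the p-values measure only the spread between these libraries, which may be technical.

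KDM4C is a histone demethylase of the Jumonji family that removes methyl groups from lysine 9 and lysine 36 of histone H3, and it is known as a regulator of transcription in several cancers. An siRNA is a short duplex from which the Argonaute complex keeps 1 strand, the guide, and cleaves messenger RNAs that pair with it along its length. Bases 2 to 8 of the guide, the seed, can also lower other messenger RNAs that pair with it over that stretch alone, as microRNAs do. Transfected cells may therefore change through the target, through other messenger RNAs and through stress, and a comparison of 1 siRNA with 1 control does not separate these.

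The libraries held 14597500 to 18058553 fragments, recovered from the FPKM values and the exon lengths of GENCODE release 29, and 97.5% to 97.7% of the values above 0 in a library came out as whole fragments to within 0.05. A count of 3 fragments, taken as the floor for counting error alone, was worth 0.166 to 0.206 FPKM on an exon length of 1 kb. Transcripts of the mitochondrial genome took 26.6%, 29.5% and 30.1% of the summed FPKM in the Scramble libraries and 21.3%, 20.9% and 22.2% with Si-KDM4C#1, and since FPKM is a relative measure this share moves with every other value. The cell type label was checked against markers. All 17 of the listed genes on a list of 20 hepatocyte markers were under 1 FPKM in both groups, with a summed level of 0.881 to 1.13 FPKM in the Scramble libraries and 0.309 to 0.401 FPKM with Si-KDM4C#1, and AFP, ASGR1 and HNF4A were among them, so the defining markers of the labelled cell type were at or near 0. The markers of blood cells and of endothelium were also under 1 FPKM, with summed levels of at most 1.11 FPKM and 1.39 FPKM. Epithelial markers summed to 457 to 474 FPKM in Scramble and 432 to 457 FPKM with Si-KDM4C#1. Of the 9 listed, 5 were tested, and KRT8 alone reached 205 FPKM. Mesenchymal markers, with 8 of 12 tested, summed to 108 to 117 FPKM and 115 to 116 FPKM, and VIM reached 56.5 FPKM. Of 6 listed neuronal markers 1 was tested, SNAP25, and their sums were 4.34 to 5.07 FPKM and 8.23 to 8.92 FPKM. In bulk RNA, fewer cells of a kind and less RNA per cell cannot be told apart.

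The target itself was lower. KDM4C was at 4.88, 4.63 and 4.57 FPKM in the Scramble libraries and at 1.18, 1.10 and 1.13 FPKM with Si-KDM4C#1, so the groups did not overlap. The log2 fold change on the scale of FPKM + 1 was -1.41 (limma-trend, SE 0.0782, Benjamini-Hochberg adjusted p = 2.77e-07), and a two-sided exact permutation test gave p = 0.1, the smallest that 3 against 3 libraries allow. The ranges of its paralogs KDM4A and KDM4B, which act on the same histone marks, overlapped between the groups. Of a list of 18 further histone lysine demethylases tested, 1 was called, in the lower direction (5.56%, near the 5.00% over all genes tested). That gene was HR, a demethylase and corepressor known from hair growth. HR fell from 9.60, 8.29 and 8.68 FPKM to 2.94, 2.90 and 2.51 FPKM (log2 fold change -1.38). Among 21 methyltransferases and readers of the same marks, 1 rose and 1 fell (4.76% each), near the shares over all genes of 4.18% higher and 5.00% lower. SETD2, which writes trimethylation of lysine 36, fell with a log2 fold change of -1.35. UHRF1, a reader of H3K9 methylation and hemimethylated DNA, rose with 1.15, a call that was lost with quantile normalization, at 0.97.

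Calls required both an FDR under 0.05 in limma-trend and a fold change over 2. By this rule 580 genes were higher with Si-KDM4C#1, which is 4.18% of the genes tested, and 694 were lower, which is 5.00%, together 1274 genes or 9.18%. Without the fold change limit 4563 genes (32.9%) passed higher and 4821 (34.7%) lower, and the libraries of the groups did not overlap for 34.4% of genes in the higher and 36.5% in the lower direction, so most differences past the FDR were under the fold change limit. All 580 called genes in the higher direction and 681 of the 694 in the lower direction (4.91% of genes tested) had groups that did not overlap. Of the called genes, 24 rose and 36 fell more than 4-fold, and the median size of the change was 1.22 on the log2 scale among the higher and 1.24 among the lower genes. The median over all genes tested was -0.03. The higher genes had a median level of 14.0 FPKM over the 6 libraries and the lower genes 5.70 FPKM.

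**Figure D1:**
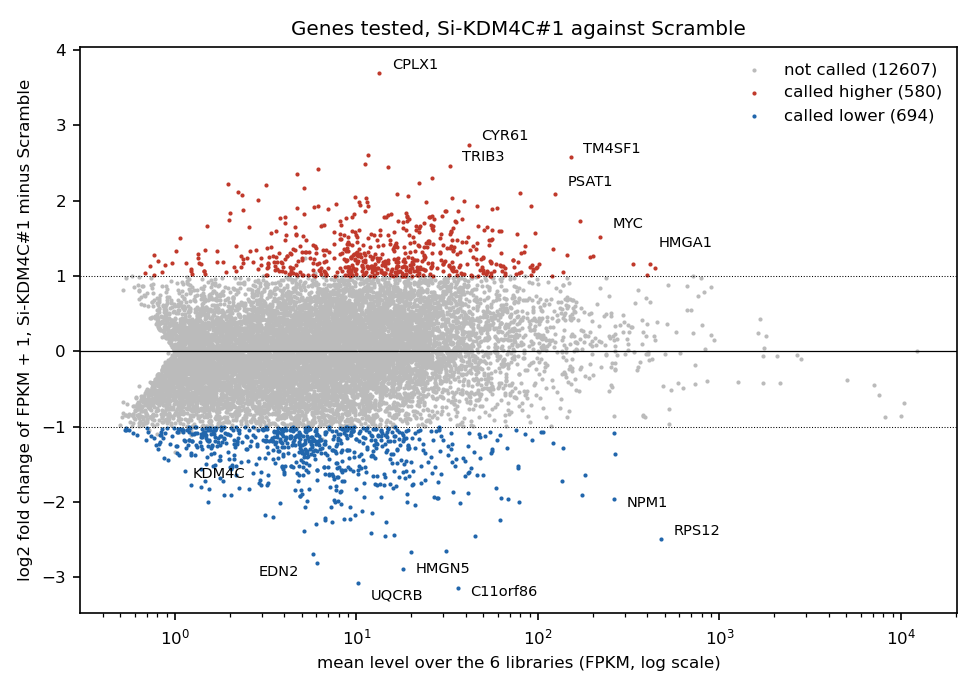
Log2 fold change of FPKM + 1 (vertical axis) against the mean level over the 6 libraries in FPKM (horizontal axis, log scale), 1 point per gene tested, with the called genes in red (580 higher) and blue (694 lower) and dotted lines at a fold change of 2. The called genes span low and high levels, from CPLX1, with the largest rise of 3.70, to RPS12, with a fall to -2.50.

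Large rises came from genes of varied function, and CYR61, BBC3, TRIB3 and FOSL1, with log2 fold changes of 2.75, 2.49, 2.47 and 2.45, are described with their lists further on. CPLX1, complexin 1, which clamps and triggers vesicle fusion at synapses, was at 0.877, 1.35 and 0.941 FPKM with Scramble and at 25.4, 24.6 and 26.9 FPKM with Si-KDM4C#1, a log2 fold change of 3.70 (standard error 0.101, adjusted p = 8.47e-09, limma-trend). The gene, listed as ENSG00000168993, lies on the minus strand at chr4:784957-826198 in GRCh38, and the groups were far apart. With Si-KDM4C#2 it was at 1.31, 1.78 and 1.33 FPKM. UNC13A, a priming factor of the same vesicles, was at 0.0355, 0.0506 and 0.0365 FPKM with Scramble and 4.24, 3.83 and 3.57 FPKM with Si-KDM4C#1. TM4SF1, a tetraspanin-like surface protein, rose from 42.04, 42.5 and 42.8 FPKM to 229, 264 and 289 FPKM (log2 fold change 2.58). MEX3D, an RNA-binding protein, rose from 2.14, 2.47 and 3.03 FPKM to 18.9, 20.3 and 22.7 FPKM (log2 fold change 2.61). KIF1C, a kinesin that carries vesicles along microtubules, rose from 7.94, 7.97 and 8.67 FPKM to 45.2, 44.7 and 42.8 FPKM (log2 fold change 2.30). TOMM22, a receptor for protein import into mitochondria, rose from 6.53, 6.66 and 8.10 FPKM to 37.03, 37.7 and 35.9 FPKM (log2 fold change 2.23). For each of these 6 genes all Si-KDM4C#1 libraries lay above all Scramble libraries.

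Among the largest falls, C11orf86, an open reading frame with no function named here, was at 70.8, 62.1 and 64.8 FPKM with Scramble and 6.81, 6.75 and 6.19 FPKM with Si-KDM4C#1 (log2 fold change -3.14, standard error 0.0914, adjusted p = 9.54e-09, limma-trend). It is listed as ENSG00000173237 and lies at chr11:66975277-66977004 on the plus strand. UQCRB, a subunit of respiratory complex III, went from 19.2, 19.7 and 18.4 FPKM to 1.45, 1.31 and 1.40 FPKM (log2 fold change -3.07), the second largest fall. HMGN5, which binds nucleosomes and loosens chromatin, was at 30.7, 32.7 and 34.2 FPKM and 3.80, 3.66 and 3.12 FPKM and lies at chrX:81113701-81201942. EDN2, the vasoconstrictor peptide endothelin 2, fell from 11.4, 9.86 and 12.96 FPKM to 0.912, 0.878 and 0.494 FPKM (log2 fold change -2.82). BMF, a BH3-only inducer of cell death, fell from 10.5, 11.7 and 9.86 FPKM to 0.823, 1.08 and 0.537 FPKM (log2 fold change -2.69). HTATSF1, a splicing-linked elongation factor, fell from 34.4, 35.98 and 35.9 FPKM to 5.60, 4.33 and 4.33 FPKM (log2 fold change -2.67). NAP1L1, a histone chaperone, was at 25.6, 28.03 and 29.9 FPKM and 4.16, 4.43 and 4.28 FPKM. The fall of EDN2 and BMF was also called with Si-KDM4C#2 (log2 fold changes -3.01 and -1.86), while UQCRB, HMGN5, HTATSF1 and NAP1L1 had -0.04, 0.56, 0.26 and -0.26 there, without a call, and were called higher with Si-KDM4C#2 than with Si-KDM4C#1 in the direct comparison.

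Some of the most abundant transcripts of the cells were among the called genes. RPS12, a protein of the small ribosomal subunit, fell from 822, 824 and 777 FPKM to 153, 141 and 134 FPKM, a log2 fold change of -2.50 (standard error 0.0518, adjusted p = 2.27e-09, limma-trend), and it was at 963, 942 and 906 FPKM with Si-KDM4C#2. NPM1, nucleophosmin, a nucleolar chaperone, fell from 381, 424 and 445 FPKM to 112, 103 and 104 FPKM (log2 fold change -1.96). ATP1B1, the beta subunit of the sodium pump, fell from 269.7, 279 and 282 FPKM to 88.6, 86.8 and 88.04 FPKM (log2 fold change -1.65). In the other direction HMGA1, an architectural chromatin protein, rose from 268, 248 and 254 FPKM to 569, 547 and 607 FPKM (log2 fold change 1.16). TUBB, a beta tubulin, rose from 259, 261 and 273 FPKM to 529, 515 and 561 FPKM (log2 fold change 1.01). After adjustment of each library for GC content HMGA1 and TUBB came under the fold change limit, at 0.89 and 0.91, and TUBB did so without Si-KDM4C#1 replicate 3, at 0.98, and without Scramble replicate 1.

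**Figure D2:**
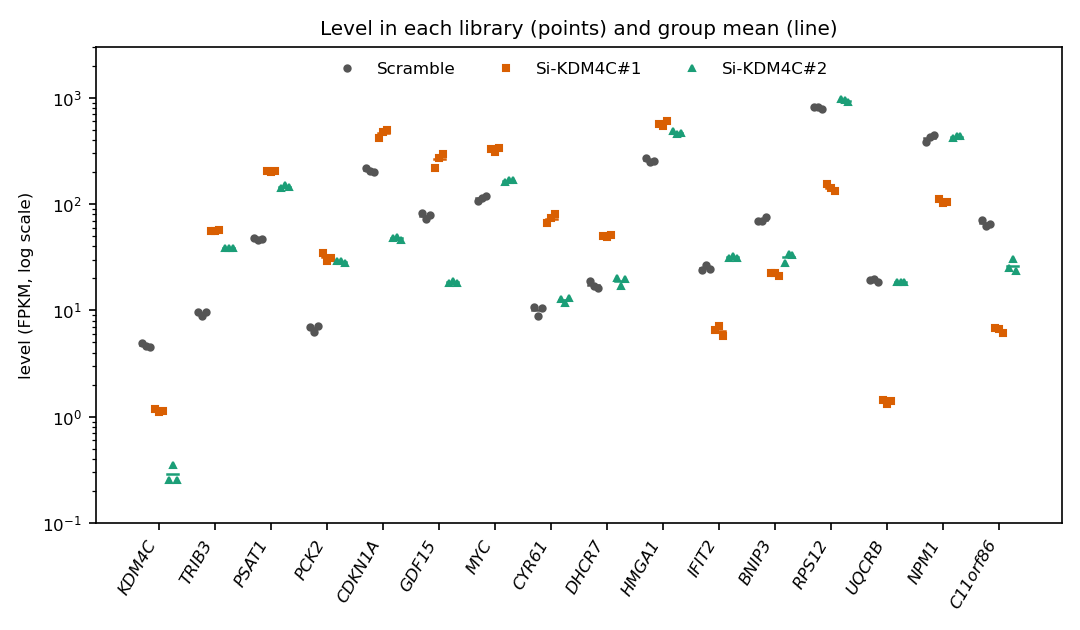
Level in FPKM (log scale) of 16 genes in each of the 9 libraries, with points for libraries and lines for the mean of each group of 3. KDM4C is lower with both siRNAs, RPS12, UQCRB and NPM1 are lower with Si-KDM4C#1 and near Scramble with Si-KDM4C#2, and CDKN1A and GDF15 lie above Scramble with Si-KDM4C#1 and below it with Si-KDM4C#2.

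The letters that an mRNA needs to pair with guide bases 2 to 8 of Si-KDM4C#1 are ATGAAGA, with the guide taken as the reverse complement of the strand that the study's methods print. This search was made after the fallen genes had been seen, in the coding sequence and the 3′ UTR of 1 transcript per gene of GENCODE release 29, for 10924 protein-coding genes tested. KDM4C holds the letters 4 times in its coding sequence. Among the 17 fallen genes with the largest change or the highest level, 15 are protein coding, and 9 of these hold the letters in their coding sequence. The 6 without a coding match are C11orf86, EDN2, BMF, RPS12, SLC12A3 and HSPA5, of which SLC12A3 holds the letters once in its 3′ UTR. Windows of 27 bases are shown for 6 of the 9 genes to let the neighbourhoods be compared, with the seed-match letters in capitals, beside 3 of the windows in KDM4C that lie within an exon.
KDM4C, coding, exon 14, chr9:7013791-7013817, plus strand: gatagcagcaATGAAGAaaatgatgct
KDM4C, coding, exon 21, chr9:7169818-7169844, plus strand: ccagatagcaATGAAGAgagaggacat
KDM4C, coding, exon 21, chr9:7169846-7169872, plus strand: tacactttagATGAAGAgttacccaag
HMGN5, coding, exon 7, chrX:81115108-81115134, minus strand: gaagtaaaaaATGAAGAagaagatcag
HTATSF1, coding, exon 6, chrX:136502802-136502828, plus strand: aaacttttggATGAAGAtgaaattaga
NAP1L1, coding, exon 6, chr12:76059801-76059827, minus strand: tggaaaccagATGAAGAagatgagatt
RPL3, coding, exon 4, chr22:39316734-39316760, minus strand: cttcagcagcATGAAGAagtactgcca
NPM1, coding, exon 5, chr5:171392727-171392753, plus strand: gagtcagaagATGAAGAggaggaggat
HSP90B1, coding, exon 17, chr12:103947374-103947400, plus strand: caagacgaagATGAAGAaatggatgtg
All positions are in GRCh38. The fallen genes HMGN5, HTATSF1 and NPM1 hold 4 coding matches each, NAP1L1 and HSP90B1 hold 3 and RPL3 holds 1.

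Genes with more coding matches to the Si-KDM4C#1 seed were lower on average. With 0, 1, 2, 3 and at least 4 matches, the median log2 fold change was 0.12, -0.07, -0.23, -0.38 and -0.57 over 6820, 2466, 926, 356 and 356 genes, and 2.83%, 5.39%, 8.42%, 12.1% and 18.3% of the genes were called lower. With each library adjusted for GC content these shares were 3.31%, 4.46%, 6.16%, 6.74% and 13.5%. The background over all protein-coding genes was 4.68% lower and 4.65% higher. The share called higher went from 6.20% with no match to 0.281% with at least 4. With Si-KDM4C#2 the same classes had medians of 0.10, 0.04, -0.03, -0.01 and -0.06. In the 3′ UTR the median went from 0.05 with no match to -0.20 with 1 and -0.32 with 2, over 9248, 1355 and 242 genes. Of the 512 lower protein-coding genes 62.3% held a coding match, against 16.9% of the 509 higher ones and 37.6% of all 10924. Of the 237 lower genes that were called higher with Si-KDM4C#2 than with Si-KDM4C#1, 73.0% held one, and of the 69 that were lower with both siRNAs, 37.7%. The 237 genes had a median GC content of 42.8% and a median coding length of 1467 bases, and the 69 genes 47.9% and 1095 bases. No other motif was counted in these sets. The shares are descriptions, with no test.

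Several other properties moved with the number of matches. The median coding length went from 1170 bases with no match to 4206 bases with at least 4, and the median GC content of the exons from 51.4% to 41.8%. The lower genes had a median GC content of 42.8%, the higher genes 57.7% and all protein-coding genes tested 48.3%. With each library adjusted for GC content, the medians of the match classes were 0.09, -0.02, -0.14, -0.25 and -0.41. The same 7 letters in reverse order, AGAAGTA, which are the seed match of neither strand, gave medians of 0.04, -0.09, -0.21, -0.42 and -0.62 with Si-KDM4C#1 and of 0.07, 0.01, -0.04, -0.02 and 0.01 with Si-KDM4C#2. In the coding sequence the reversed letters thus covered a similar range of medians. Their classes held 9146, 1456, 237, 59 and 26 genes, of which 4.29%, 6.25%, 7.59%, 15.3% and 7.69% were called lower. With GC adjustment their medians were 0.04, -0.04, -0.09, -0.22 and -0.41, and 4.24%, 3.98%, 5.06%, 10.2% and 3.85% were called lower. In the 3′ UTR the reversed letters had medians of 0.03, -0.10 and -0.14 with 0, 1 and 2 matches. With GC adjustment these were 0.02, 0.01 and 0.02, against 0.04, -0.08 and -0.18 for the seed letters. With the same adjustment the seed letters of the passenger strand had 0.03, -0.10 and -0.14 in the 3′ UTR, over 10308, 574 and 40 genes. Those of Si-KDM4C#2 had 0.02, 0.02 and -0.0008, over 10079, 741 and 94 genes. A list of 4 motifs was counted in this way, the other 2 being the seed letters of the passenger strand, TGCTATC, and those of Si-KDM4C#2, CATGATC. With 0 and 1 coding matches TGCTATC had medians of 0.02 and -0.16, and CATGATC 0.02 and -0.02. With 2, 3 and at least 4 matches CATGATC had -0.22, -0.20 and -0.50, over 102, 15 and 3 genes. For TGCTATC these were -0.08, -0.49 and -0.25, over 27, 4 and 1 genes. Pairing that runs on from the seed letters was counted too, as the longest unbroken run of bases in the coding sequence shared with the siRNA's target in KDM4C, KDM4C left out. Runs of 7, 8, 9 and at least 10 bases, the longest being 13, had medians of -0.11, -0.32, -0.31 and -0.13 over 2737, 1050, 248 and 68 genes, and 6.76%, 9.71%, 9.27% and 11.8% of these genes were called lower. The median thus did not go down step by step with the length of the run. With GC adjustment the medians were -0.06, -0.20, -0.19 and -0.07. The run classes had a median of 1, 2, 2 and 2 coding matches and a median GC content of 46.2%, 42.4%, 42.8% and 43.8%. Seed letters, GC content and coding length moved together, and their part in the falls was not tested.

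**Figure D3:**
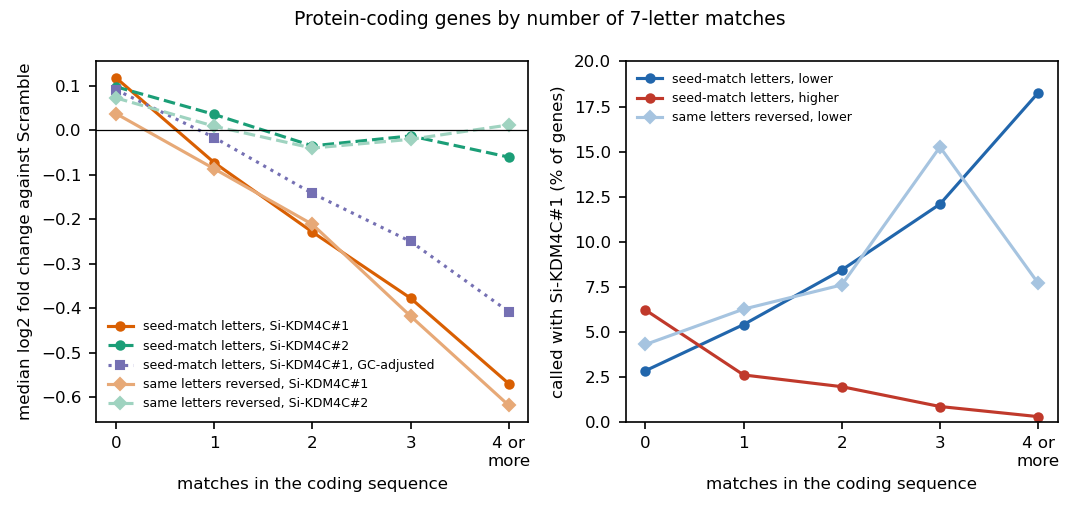
Left, median log2 fold change against Scramble (vertical axis) of protein-coding genes, with each siRNA. The horizontal axis is the number of coding matches to the seed letters of Si-KDM4C#1 or to the same letters reversed. GC-adjusted medians are drawn for the seed letters with Si-KDM4C#1 alone. Right, the share of genes called with Si-KDM4C#1 in percent; the median falls from 0.12 to -0.57 with the seed letters and from 0.04 to -0.62 with the reversed letters.

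Functions were followed through lists of genes, each described by its counts and its median beside those of all genes (4.18% higher, 5.00% lower, median -0.03). For counts past the FDR alone, the shares over all genes tested were 32.9% higher and 34.7% lower. For the direct comparison, they were 4.26% higher and 2.58% lower with Si-KDM4C#2 than with Si-KDM4C#1. Levels given as rising or falling from one set of values to another are those of the 3 Scramble and then the 3 Si-KDM4C#1 libraries, and for every gene so described the groups did not overlap. Among lists with at least 8 members tested, the ATF4 amino acid response had the highest share of rises. ATF4 is the transcription factor that is translated when amino acids or endoplasmic reticulum function fail, and it switches on amino acid transport, serine and asparagine synthesis and stress regulators. Of 32 members tested, 15 rose (46.9%) and 1 fell, the median was 0.92, and 29 passed the FDR in the higher direction. ATF4 itself was at 65.1, 68.1 and 70.1 FPKM with Scramble and 171, 173 and 181 FPKM with Si-KDM4C#1.

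Among the regulators of this response, TRIB3, a pseudokinase that restrains AKT and ATF4, was at 9.59, 8.90 and 9.57 FPKM with Scramble and 55.7, 55.7 and 57.2 FPKM with Si-KDM4C#1. The log2 fold change was 2.47 (standard error 0.037, adjusted p = 5.12e-10, limma-trend), and with Si-KDM4C#2 it was at 38.8, 38.4 and 38.5 FPKM. NUPR1, a small stress-induced chromatin protein, rose from 3.19, 3.42 and 2.94 FPKM to 15.4, 16.5 and 17.2 FPKM (log2 fold change 2.05). CHAC1, which breaks down glutathione, rose from 4.54, 3.48 and 2.84 FPKM to 15.2, 17.6 and 18.5 FPKM (log2 fold change 1.98). DDIT3, the transcription factor CHOP, rose from 6.79, 8.42 and 5.71 FPKM to 13.9, 13.6 and 18.05 FPKM (log2 fold change 1.03). The call of DDIT3 was lost without Scramble replicate 3, at 0.91, or without Si-KDM4C#1 replicate 3, at 0.90, and with quantile normalization, at 0.98. Of the enzymes, PSAT1, which makes phosphoserine, rose from 48.04, 45.7 and 47.1 FPKM to 203, 200.2 and 204 FPKM (log2 fold change 2.09). PHGDH, the first enzyme of that pathway, rose from 14.4, 12.5 and 14.5 FPKM to 34.4, 33.5 and 34.9 FPKM (log2 fold change 1.26). PCK2, the mitochondrial phosphoenolpyruvate carboxykinase, rose from 7.005, 6.32 and 7.08 FPKM to 34.9, 28.9 and 31.3 FPKM (log2 fold change 2.07). Of the transporters, SLC7A11, which imports cystine, rose from 3.83, 3.66 and 3.29 FPKM to 12.1, 13.5 and 12.1 FPKM (log2 fold change 1.56). SLC1A5, which imports glutamine, rose from 24.99, 23.6 and 24.5 FPKM to 76.9, 74.5 and 78.6 FPKM (log2 fold change 1.61). SLC7A5, which imports large neutral amino acids, was at 312, 285 and 305 FPKM and 499, 486 and 487 FPKM, and its log2 fold change of 0.71 passed the FDR but not the fold change limit. VLDLR, a lipoprotein receptor, was the member that fell, from 7.19, 7.67 and 7.89 FPKM to 3.02, 2.70 and 2.61 FPKM (log2 fold change -1.19).

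The core letters of the amino acid response element, TGATGNAA, were searched on both strands of promoter windows that run from 250 bases before to 50 bases after a gene's start (RefSeq, GRCh38.p14). Of the 34 listed members 29 had a window, and 5 of these held the letters (17.2%), against 3.75% of all 27305 windows. Among all genes tested, 9009 of 13780 symbols had a window, of which 1.48% held the letters, so the windows cover the genes in part. Of all genes called higher, 408 had a window, of which 2.45% held the letters. Of all genes called lower, 419 had a window, of which 2.39% held the letters, a similar share. Among list members that rose, 4 of 12 windows held the letters. Those 4 are shown with the letters in capitals, in the direction of the gene.
ATF3, chr1:212565207-212565232, plus strand: aggtcaggaTGATGGAAggctgtcat
CHAC1, chr15:40953253-40953278, plus strand: cccctgccgTTGCATCActcctgcca
SLC1A5, chr19:46784895-46784920, minus strand: ggaagtggcTGATGCAAgctgtccag
SLC7A1, chr13:29595665-29595690, minus strand: gcgcactgcTGATGAAAcctggcgcc
In CHAC1 the letters stand in the opposite orientation, as TTGCATCA. A match of letters is a description of the window and shows no binding.

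Of 26 genes of the unfolded protein response and endoplasmic reticulum chaperones, 1 rose and 2 fell, with a median of -0.23. HSPA5, the chaperone BiP, fell from 349, 371 and 351 FPKM to 172, 169.8 and 161 FPKM (log2 fold change -1.08). HSP90B1, the chaperone GRP94, fell from 264, 284 and 285 FPKM to 80.3, 73.6 and 67.2 FPKM (log2 fold change -1.90). SDF2L1, a partner of BiP, rose from 40.9, 38.5 and 40.9 FPKM to 85.7, 89.6 and 91.01 FPKM (log2 fold change 1.13). None of 20 cytosolic aminoacyl-tRNA synthetases was called by limma-trend, although 13 passed the FDR higher and 6 lower (median 0.21). None of 39 proteasome subunits was called either, with 19 past the FDR higher and 11 lower. Over all genes tested, 32.9% passed the FDR higher and 34.7% lower. Of 26 heat shock and cytosolic chaperone genes, 2 rose and 1 fell. HSPA1A rose from 28.3, 29.9 and 28.6 FPKM to 80.6, 81.3 and 74.996 FPKM (log2 fold change 1.42). Its near-identical copy HSPA1B rose from 23.3, 23.4 and 22.9 FPKM to 64.7, 58.9 and 58.98 FPKM (log2 fold change 1.35), and since counting could split fragments between these genes, their separate values are uncertain. HSPB8, a small heat shock protein, fell with a log2 fold change of -1.16. The metallothioneins, which bind zinc and copper, rose in 3 of 4 genes tested on their list. MT2A rose from 53.9, 53.2 and 63.1 FPKM to 127, 116 and 128 FPKM (log2 fold change 1.12). MT1E rose from 13.5, 16.1 and 15.8 FPKM to 59.1, 57.2 and 55.97 FPKM (log2 fold change 1.86), with the same reserve about similar copies. With GC adjustment 1 of the 4 was called higher and with quantile normalization 2, and MT2A lost its call in both, at 0.99 and 0.92. SDF2L1 lost its call in both too, at 0.78 and 0.95.

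p53 is the transcription factor that answers DNA damage and other stress by arresting the cell cycle or inducing death. Of 24 p53 targets tested, 6 rose (25%) and 2 fell, with a median of 0.64. CDKN1A, the cyclin-dependent kinase inhibitor p21, was at 218, 205 and 199 FPKM with Scramble and 417, 476 and 500.4 FPKM with Si-KDM4C#1 (log2 fold change 1.16, standard error 0.0659, adjusted p = 3.32e-07, limma-trend). With each library adjusted for GC content it was 0.96, under the fold change limit. With Si-KDM4C#2 CDKN1A was at 48.3, 49.2 and 46.01 FPKM, below Scramble. GDF15, a secreted stress factor of the TGF-beta family, showed the same arrangement, at 81.6, 72.5 and 78.9 FPKM with Scramble, 220.4, 271 and 297 FPKM with Si-KDM4C#1 and 17.9, 19.1 and 18.3 FPKM with Si-KDM4C#2. BBC3, the death inducer PUMA, rose from 3.15, 2.91 and 2.07 FPKM to 19.1, 18.3 and 21.6 FPKM (log2 fold change 2.49). FDXR, a mitochondrial reductase, rose from 13.2, 12.02 and 13.3 FPKM to 47.8, 49.7 and 49.8 FPKM (log2 fold change 1.86). MDM2, the ubiquitin ligase that degrades p53, was at 11.3, 11.1 and 10.4 FPKM and 20.6, 23.1 and 24.1 FPKM, with a log2 fold change of 0.99 that was under the limit and passed it in some alternatives. RRM2B, the p53-induced subunit of ribonucleotide reductase, fell from 19.7, 20.9 and 19.4 FPKM to 5.32, 5.31 and 4.87 FPKM (log2 fold change -1.77). ZMAT3, an RNA-binding target of p53, fell from 57.8, 59.1 and 53.8 FPKM to 26.4, 26.8 and 25.7 FPKM (log2 fold change -1.08), and was at -0.85 and not called with GC adjustment. In the direct comparison, 11 members of the list were called lower with Si-KDM4C#2 than with Si-KDM4C#1 and 0 higher. The shares over all genes tested were 2.58% and 4.26%.

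Among 16 BCL2 family genes, which set the threshold of apoptosis, 2 rose and 2 fell. BCL2L1, whose main product BCL-XL protects cells, rose from 2.98, 3.62 and 3.05 FPKM to 11.2, 13.8 and 14.1 FPKM (log2 fold change 1.73). The other calls were BBC3, higher, and BMF and BNIP3, lower.

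Of 51 genes of DNA replication and the G1/S transition, 5 rose (9.80%) and 1 fell (1.96%), with a median of 0.20. UNG, which removes uracil from DNA, rose from 26.5, 23.9 and 24.4 FPKM to 77.9, 82.3 and 80.8 FPKM (log2 fold change 1.65). RRM2, the regulated subunit of ribonucleotide reductase, rose from 13.6, 14.9 and 15.1 FPKM to 33.5, 38.4 and 40.9 FPKM (log2 fold change 1.31). CCNE1, cyclin E1, rose from 2.55, 2.49 and 2.63 FPKM to 8.40, 6.96 and 8.42 FPKM (log2 fold change 1.32). Of 50 mitotic genes 2 rose and 2 fell (4% each, under the shares over all genes of 4.18% and 5.00%), with a median of -0.13 that became 0.07 after GC adjustment. The lower count was 5 with quantile normalization, 4 without Scramble replicate 1 and 5 without Si-KDM4C#1 replicate 1. AURKB, the Aurora kinase of the chromosomal passenger complex, rose from 19.2, 18.6 and 16.8 FPKM to 42.5, 40.96 and 44.1 FPKM (log2 fold change 1.18). TOP2A, topoisomerase II alpha, fell from 67.3, 70.2 and 72.3 FPKM to 26.7, 26.2 and 24.02 FPKM (log2 fold change -1.41). With Si-KDM4C#2 the mitotic list had a median of 0.53, and 12 members were called higher with Si-KDM4C#2 in the direct test against Si-KDM4C#1. Among 14 inhibitors and G1 cyclins, 2 rose and 1 fell, and with GC adjustment 1 was called higher and 2 lower. CDKN2A, the locus of p16 and p14ARF, rose from 29.5, 27.3 and 28.8 FPKM to 78.3, 81.8 and 84.3 FPKM (log2 fold change 1.48). CDKN1B, the inhibitor p27, fell from 26.7, 24.9 and 25.1 FPKM to 11.6, 10.97 and 9.48 FPKM (log2 fold change -1.19).

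Of 45 genes of double-strand break repair, 0 rose and 3 fell (6.67%, near the background of 5.00%), with a median of 0.09. RBBP8, the end-resection factor CtIP, fell from 11.9, 12.1 and 13.3 FPKM to 3.30, 2.81 and 3.59 FPKM (log2 fold change -1.67). LIG4, the ligase of end joining, fell from 5.15, 5.85 and 6.56 FPKM to 1.87, 2.11 and 1.82 FPKM (log2 fold change -1.22). CLSPN, claspin, an adaptor of the replication checkpoint, fell from 12.4, 12.03 and 10.1 FPKM to 5.63, 5.63 and 4.15 FPKM (log2 fold change -1.03), a call that was lost without Scramble replicate 1, at -0.98, or without Si-KDM4C#1 replicate 3, at -0.91. With each library adjusted for GC content the list had 2 higher and 1 lower, and LIG4 and CLSPN, both at -0.93, were no longer called. H2AFX, the histone that is phosphorylated at breaks, was at 46.3, 43.7 and 44.4 FPKM and 72.05, 74.5 and 76.7 FPKM, past the FDR but under the fold change limit.

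Immediate early genes are switched on within minutes of growth factor or stress signals and encode AP-1 subunits and feedback phosphatases. Of 27 members tested 9 rose (33.3%) and 0 fell, with a median of 0.66. MYC, a growth-promoting transcription factor, was at 106, 114 and 119 FPKM with Scramble and 333, 308 and 338 FPKM with Si-KDM4C#1 (log2 fold change 1.52, standard error 0.0512, adjusted p = 1.7e-08, limma-trend). Of the AP-1 subunits, FOSL1 rose from 4.07, 3.63 and 3.99 FPKM to 21.7, 26.3 and 29.8 FPKM (log2 fold change 2.45). ATF3 rose from 3.75, 3.70 and 3.71 FPKM to 15.7, 18.8 and 17.4 FPKM (log2 fold change 1.95). JUN rose from 2.13, 2.03 and 2.75 FPKM to 7.51, 8.96 and 8.10 FPKM (log2 fold change 1.48). DUSP1, a phosphatase of MAP kinases, rose with a log2 fold change of 1.13, and ETV4 and ETV5, transcription factors downstream of ERK, with 1.07 and 1.10. IER3, an early stress gene, had -0.81 and was not called. With GC adjustment the list had 7 higher and 1 lower, since IER3 was then called lower, at -1.02, while DUSP1 and ETV4, at 0.97 and 0.82, lost their calls.

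YAP and TEAD, the transcription factors at the end of the Hippo pathway, drive genes of adhesion and growth. Of 19 targets and partners tested 6 rose (31.6%) and 0 fell, with a median of 0.32. CYR61, the matricellular protein CCN1, was at 10.8, 8.81 and 10.5 FPKM with Scramble and 65.6, 73.5 and 79.96 FPKM with Si-KDM4C#1, the second largest rise (log2 fold change 2.75, standard error 0.0876, adjusted p = 1.43e-08, limma-trend). CTGF, its relative CCN2, rose from 2.75, 2.61 and 2.30 FPKM to 10.9, 12.7 and 14.8 FPKM (log2 fold change 1.95). TEAD4 rose from 12.9, 12.2 and 12.6 FPKM to 40.1, 39.3 and 42.3 FPKM (log2 fold change 1.61). With Si-KDM4C#2 CYR61 was at 12.8, 11.7 and 13.2 FPKM and CTGF at 3.12, 3.27 and 3.48 FPKM, and 6 members of the list were called lower there than with Si-KDM4C#1. AXL, a receptor tyrosine kinase, had -0.84 and was not called. In the actin cytoskeleton list, 4 of 35 members rose and 3 fell, with 2 and 2 called without Scramble replicate 2. PPP1R14B, an inhibitor of a phosphatase, rose from 24.3, 22.6 and 26.5 FPKM to 93.7, 92.97 and 95.7 FPKM (log2 fold change 1.90). TPM4, a tropomyosin, rose from 11.7, 11.5 and 11.97 FPKM to 41.6, 38.9 and 39.2 FPKM (log2 fold change 1.68). CDC42, a small GTPase, fell from 58.4, 65.7 and 64.3 FPKM to 18.96, 20.4 and 19.8 FPKM (log2 fold change -1.62).

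**Figure D4:**
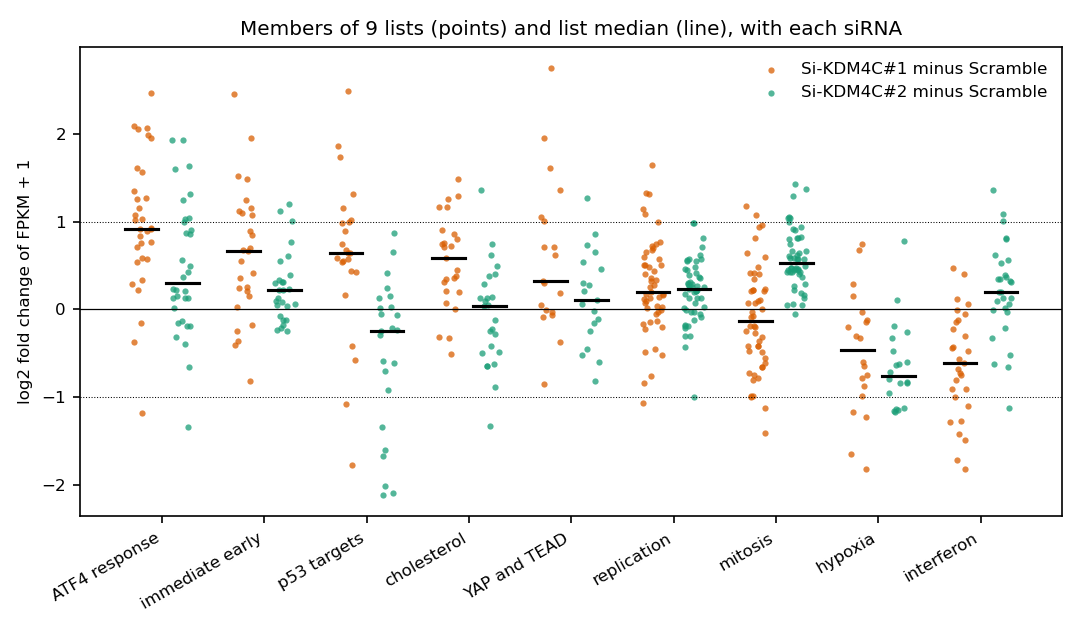
Log2 fold change of FPKM + 1 (vertical axis) of the tested members of 9 lists, 1 point per gene and a black line at the list median, with Si-KDM4C#1 in orange and Si-KDM4C#2 in green; both comparisons use the same Scramble libraries. The ATF4 list has a median of 0.92 with Si-KDM4C#1 and 0.30 with Si-KDM4C#2, and the p53, mitosis and interferon lists have medians of opposite sign with the siRNAs.

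Cholesterol is made through the mevalonate pathway under the control of SREBP2, a transcription factor. Of 25 genes of synthesis and uptake, 5 rose (20%) and 0 fell, with a median of 0.58, and 20 passed the FDR higher. With GC adjustment 3 were called higher. DHCR7, the enzyme of the last step, rose from 19.1, 16.8 and 16.2 FPKM to 49.9, 49.4 and 51.03 FPKM (log2 fold change 1.48). MVD, of the mevalonate part, rose from 3.89, 3.12 and 3.06 FPKM to 8.58, 8.60 and 9.02 FPKM (log2 fold change 1.17), and was at 0.85 and not called with GC adjustment. INSIG1, which holds SREBP in the endoplasmic reticulum, rose from 28.6, 27.1 and 31.03 FPKM to 66.3, 72.4 and 72.7 FPKM (log2 fold change 1.26). In fatty acid synthesis ACLY, which supplies acetyl-CoA to both pathways, fell from 102, 96.5 and 90.9 FPKM to 40.4, 40.7 and 36.1 FPKM and was the 1 call among 15 members, while FASN, fatty acid synthase, had 0.90.

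The list with the lowest median among those with over 10 members tested was the interferon response and RNA sensing, genes that cells induce on meeting foreign RNA. Of 29 members tested 0 rose and 7 fell (24.1%), with a median of -0.61, and 21 passed the FDR lower. IFIT2, which binds viral RNA, was at 24.2, 26.8 and 24.6 FPKM with Scramble, 6.49, 7.08 and 5.72 FPKM with Si-KDM4C#1 and 31.2, 32.2 and 31.1 FPKM with Si-KDM4C#2. The log2 fold change was -1.82 (standard error 0.0668, adjusted p = 2.59e-08, limma-trend). IFIT3 fell from 32.6, 41.997 and 36.3 FPKM to 9.54, 11.9 and 10.2 FPKM (log2 fold change -1.72). OASL, which enhances RNA sensing, fell from 58.4, 56.8 and 54.9 FPKM to 19.6, 22.5 and 19.7 FPKM (log2 fold change -1.42). IFI44 fell from 12.97, 11.1 and 11.5 FPKM to 3.48, 4.13 and 3.15 FPKM (log2 fold change -1.49). ISG15, a ubiquitin-like modifier, had -0.48 and was not called. In the direct comparison 13 members were called higher with Si-KDM4C#2 than with Si-KDM4C#1 and 1 lower. In MHC class I presentation TAPBP, tapasin, fell from 26.7, 25.7 and 23.1 FPKM to 10.6, 11.9 and 10.9 FPKM (log2 fold change -1.11), the 1 call among 10 members, whose median was -0.53.

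Hypoxia-inducible genes, which HIF transcription factors switch on at low oxygen, fell in 4 of 20 members (20%) and rose in 0, with a median of -0.47. PLOD2, a collagen lysyl hydroxylase, fell from 90.6, 88.5 and 97.5 FPKM to 26.4, 26.02 and 23.7 FPKM (log2 fold change -1.82). BNIP3, a mitophagy receptor, fell from 68.7, 68.6 and 75.3 FPKM to 22.6, 22.5 and 20.8 FPKM (log2 fold change -1.64). EGLN3, an oxygen sensor that marks HIF for degradation, fell from 32.4, 28.6 and 32.2 FPKM to 14.2, 12.8 and 12.8 FPKM (log2 fold change -1.17). PLOD2, BNIP3 and EGLN3 were also called lower with Si-KDM4C#2 against the same Scramble libraries, with log2 fold changes of -1.12, -1.15 and -1.16. CA9 and VEGFA, further HIF targets, had -0.30 and -0.14 and were not called. Of 25 glycolysis genes 1, HKDC1, a hexokinase-like protein, was called, though not with quantile normalization (-0.95), and LDHA, lactate dehydrogenase A, had -0.86 (median of the list -0.23).

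**Figure D5:**
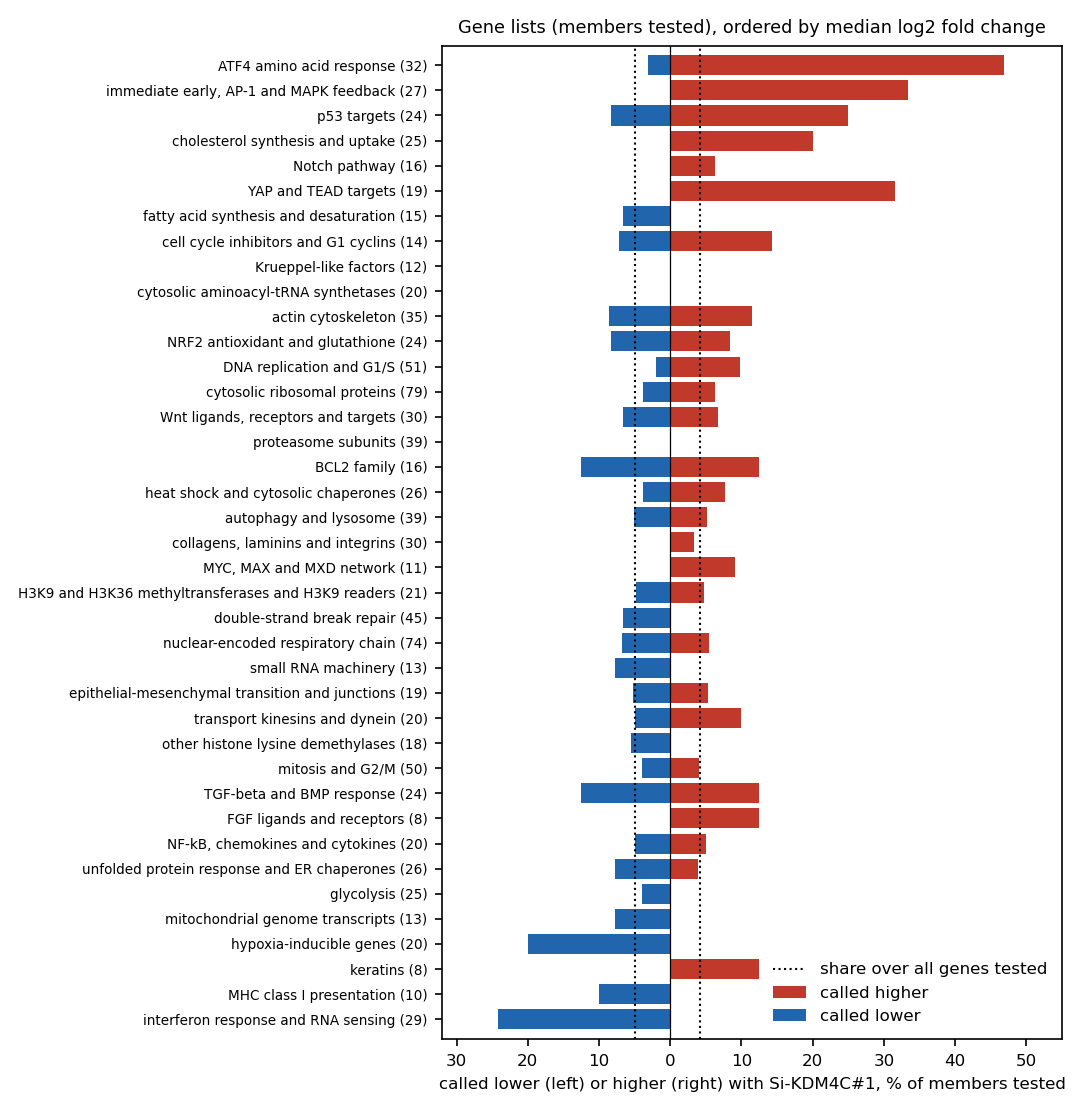
Share of the tested members of each list that were called lower (blue, to the left) or higher (red, to the right) with Si-KDM4C#1, in percent, for lists of at least 8 tested members (number in parentheses) other than the marker, housekeeping and study gene lists, ordered by the list median, with dotted lines at the shares over all genes tested (5.00% and 4.18%). Among the lists plotted, the ATF4, immediate early, YAP and p53 lists reach farthest to the right and the interferon and hypoxia lists farthest to the left.

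Mitochondria and ribosomes are built from many subunits in fixed proportion, and their lists held single large changes. Of the 13 mRNAs of the mitochondrial genome 1, MT-ATP8, was called, from 160.0, 208 and 215 FPKM to 54.04, 95.3 and 93.5 FPKM (log2 fold change -1.29), and 9 passed the FDR lower (median -0.43, and -0.08 after quantile normalization). Of 74 nuclear genes of the respiratory chain 4 rose and 5 fell, with a median of 0.09. The higher count was 1 with quantile normalization, and 2 with GC adjustment, without Scramble replicate 3 or without Si-KDM4C#1 replicate 2. Beside UQCRB, COX7B of complex IV fell from 69.7, 83.5 and 85.97 FPKM to 32.8, 31.01 and 31.3 FPKM (log2 fold change -1.30). COX8A of the same complex rose from 99.5, 75.3 and 76.5 FPKM to 176, 227 and 211 FPKM. Of 79 cytosolic ribosomal protein genes 5 rose (6.33%) and 3 fell (3.80%), near the shares over all genes, with a median of 0.19. The higher count was 2 with GC adjustment and 3 with quantile normalization. RPL3 fell from 366, 382 and 404 FPKM to 162, 151 and 134 FPKM (log2 fold change -1.36). RPL23A fell from 221, 199 and 205 FPKM to 61.1, 63.4 and 62.2 FPKM (log2 fold change -1.73), beside RPS12. RPL11, a ribosomal protein that also binds MDM2, rose from 108, 118 and 129 FPKM to 270.1, 299 and 289 FPKM (log2 fold change 1.27). RPS21 rose from 277, 283 and 274 FPKM to 574, 626 and 609.9 FPKM (log2 fold change 1.11), a call that was lost with GC adjustment, at 0.95. Ribosomal protein genes have many processed copies in the genome, and counting could split fragments among them. RPS24P17, one such copy, was itself called lower, from 52.6, 51.9 and 58.4 FPKM to 9.16, 5.34 and 9.42 FPKM (log2 fold change -2.66).

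Some further falls came from other lists. AKR1C3, an aldo-keto reductase, fell from 14.7, 15.9 and 15.95 FPKM to 2.68, 3.13 and 2.98 FPKM (log2 fold change -2.07). Its near copy AKR1C1 fell from 3.81, 3.16 and 3.62 FPKM to 0.221, 0.203 and 0.170 FPKM (log2 fold change -1.92), and counting could split fragments between them. ATG3, which attaches LC3 to membranes in autophagy, fell from 8.40, 8.92 and 9.93 FPKM to 1.61, 1.29 and 1.72 FPKM (log2 fold change -1.99). KIF5B, a kinesin heavy chain, fell from 53.8, 53.5 and 54.4 FPKM to 16.1, 13.9 and 12.2 FPKM (log2 fold change -1.87). ID2, an inhibitor of helix-loop-helix factors, fell from 23.2, 26.3 and 24.5 FPKM to 7.73, 6.99 and 7.90 FPKM (log2 fold change -1.59). BMP2, a growth factor that induces it, rose from 22.1, 20.8 and 19.9 FPKM to 50.5, 53.5 and 57.4 FPKM (log2 fold change 1.32).

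Some classes of short or non-coding genes were called lower more often than higher, beside shares over all genes tested of 5.00% lower and 4.18% higher. Of 148 small nuclear RNA genes tested 2 were higher (1.35%) and 19 lower (12.8%). Of 84 small nucleolar RNA genes 2 were higher (2.38%) and 8 lower (9.52%), and of 139 genes of the class misc_RNA 0 were higher and 11 lower (7.91%). Of 608 processed pseudogenes 25 were higher (4.11%) and 48 lower (7.89%). Of 710 antisense genes 10 were higher (1.41%) and 41 lower (5.77%), with the lower share near that of all genes. Other classes did not show this balance. Of 478 lincRNA genes 17 were higher (3.56%) and 23 lower (4.81%), near the background, and of 25 miRNA genes 2 were higher and 1 lower. Of 10935 protein-coding genes 509 were higher and 512 lower. The median log2 fold change was -0.44 for small nuclear RNAs, -0.50 for misc_RNA and -0.17 for antisense genes, against 0.01 for protein-coding genes. The kit named in the labels does not mark strand, so fragments of a gene and of its antisense partner cannot be told apart. The median exon length was 107 bases for small nuclear and 135 bases for small nucleolar RNA genes. On such short exons the floor of 3 fragments lies far above the 0.166 to 0.206 FPKM given for 1 kb. Genes of these classes could thus pass the filter of 1 FPKM on few fragments and in 1 group alone. Over all classes, 495 genes in place of 694 were called lower when each of the 6 libraries had to reach 1 FPKM. The part of exon length and of counting error in these counts was not tested.

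The direct comparison of the siRNAs described where their libraries differed. It called 950 genes (6.84%), of which 592 (4.26%) were higher and 358 (2.58%) lower with Si-KDM4C#2. Of the 580 genes higher with Si-KDM4C#1, 106 (18.3%) were called lower with Si-KDM4C#2 than with Si-KDM4C#1, and of the 694 lower genes, 283 (40.8%) were called higher with Si-KDM4C#2. Calls against the same Scramble libraries were shared by 169 higher and 112 lower genes, with the shares of genes called with Si-KDM4C#2 at 2.49% and 2.38%. Since both comparisons use the same controls, this overlap is not independent evidence. The 580 and 694 genes were picked by their Si-KDM4C#1 libraries, and the direct comparison uses these libraries again. The shares of 18.3% and 40.8% are thus in part set by that choice. A gene without a call in the direct comparison is not thereby shown to change alike with both siRNAs. Among the genes with the largest differences, MMP24, a membrane-type metalloproteinase, was at 1.35, 1.42 and 0.978 FPKM with Scramble, 11.4, 10.9 and 10.9 FPKM with Si-KDM4C#1 and 1.21, 1.24 and 1.23 FPKM with Si-KDM4C#2. NECTIN4, an adhesion molecule, was at 1.55, 1.36 and 0.750 FPKM, 7.08, 10.2 and 9.76 FPKM and 0.0921, 0.202 and 0.218 FPKM. ANP32B, a histone chaperone, was at 103, 103 and 102 FPKM with Scramble, 21.3, 21.3 and 20.1 FPKM with Si-KDM4C#1 and 144, 146 and 141 FPKM with Si-KDM4C#2, and GTF3C6, a subunit of a polymerase III factor, was at 24.3, 25.3 and 24.99 FPKM, 4.05, 4.69 and 4.37 FPKM and 49.04, 49.1 and 45.2 FPKM.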

How the data were processed

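RNA sequencing of 3 Scramble, 3 Si-KDM4C#1 and 3 Si-KDM4C#2 libraries was deposited by the authors as FPKM, fragments scaled to exon length and library total, in 1 list per library with gene identifier and symbol. The submitters' processing notes name FastQC 0.11.5, HISAT2 2.1.0, StringTie 1.3.3b, featureCounts, DESeq 1.28.0 and GRCh38, without role or order, and the tool that made the FPKM is not given in the sources used here. Since FPKM is relative to the total of a library, a large change in abundant transcripts moves all other values.

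The 13881 genes whose mean reached 1 FPKM in Scramble or Si-KDM4C#1 were compared on log2(FPKM + 1) with limma-trend (limma 3.58.1, R 4.3.3), with all 9 libraries in 1 fit and no covariate. Fold changes on this scale understate the change of low genes. The false discovery rate followed Benjamini and Hochberg, and a call required an FDR under 0.05 and a fold change over 2. On simulated data of this design 198 of 200 planted 4-fold changes were called among 12762 genes, with 0 false calls. The planted genes all had a mean over 200 fragments, and 1 fixed spread between libraries beyond counting error was set for all genes. Smaller changes, changes in low genes and other spreads were not tried, so these counts do not carry over to them.

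Fragments were recovered from FPKM and GENCODE release 29 exon lengths, came out whole (within 0.05) in all libraries for 97.5% of the genes listed, and gave the depth of 14597500 to 18058553 fragments per library. Limma voom on these fragments with median-ratio scaling was an alternative, on 16005 genes, beside other scalings, pseudocounts, filters, limits, a GC adjustment, a replicate block and leaving out each library. Genes were named by size of change, level, list membership and difference between the siRNAs. A further 18 genes (ATF4, CHAC1, DDIT3, PHGDH, SLC1A5, VLDLR, MDM2, ZMAT3, DUSP1, ETV4, ETV5, IER3, AXL, FASN, ISG15, CA9, VEGFA and LDHA) were chosen after their values were seen, as were the seed letters and the promoter motif. Some members of the lists are counted but not reported here by name. All members and lists were chosen with earlier results of these data known. Python 3.11.15 with numpy 2.4.6, pandas 2.3.3 and matplotlib 3.10.9 served for sequences and plots.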

Additional observations from a re-analysis of the deposited data

Results flagged for a closer look

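Of the genes called with Si-KDM4C#1, 7 were called in the opposite direction with Si-KDM4C#2 against the same Scramble libraries, and the direct comparison of the siRNAs called each of them. The differences (Si-KDM4C#2 minus Si-KDM4C#1, log2 scale of FPKM + 1) were -3.75 for GDF15 and -3.25 for CDKN1A, whose values are given above. MAL2, a membrane protein of vesicle transport, was at 19.6, 20.3 and 20.8 FPKM with Scramble, 49.4, 52.5 and 51.1 FPKM with Si-KDM4C#1 and 5.36, 6.56 and 6.43 FPKM with Si-KDM4C#2, a difference of -2.87. RAB5C, a GTPase of early endosomes, was at 12.8, 10.9 and 13.0 FPKM, 24.1, 28.4 and 29.3 FPKM, and 3.95, 4.21 and 4.35 FPKM, a difference of -2.45. The opposite order was seen for PPP3CB, a catalytic subunit of calcineurin, at 6.49, 6.73 and 6.61 FPKM with Scramble, 2.62, 2.38 and 1.67 FPKM with Si-KDM4C#1 and 14.0, 14.9 and 14.8 FPKM with Si-KDM4C#2, a difference of 2.28. C9orf40, an open reading frame, was at 9.54, 8.46 and 10.5 FPKM, 3.52, 3.80 and 4.41 FPKM, and 25.7, 26.4 and 22.5 FPKM, a difference of 2.40. AP000924.1, listed without a function, was at 1.27, 2.17 and 1.05 FPKM, 0.355, 0.0877 and 0 FPKM, and 4.63, 5.76 and 3.83 FPKM, a difference of 2.32. In each of these genes the groups did not overlap.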

How the results depend on the processing

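With quantile normalization, median-ratio scaling, all listed genes, genes that reached 1 FPKM in each of the 6 libraries, an FDR of 0.01 and GC adjustment, the counts of higher and lower genes and of genes differing between the siRNAs stayed within 1.5 times the reported ones, as did the higher and lower counts with the 6 libraries alone, which hold no Si-KDM4C#2. A pseudocount of 0.1 gave 891 higher, 1368 lower and 1716 differing genes, and limma voom on the recovered fragments gave 1198, 1825 and 2565. Both let genes of low level reach the fold change limit. Median-ratio scaling was chosen for voom after seeing the data, in place of TMM scaling, which was not run. Without a fold change limit the counts were 4563, 4821 and 8644, and with the fold change tested against 2 they were 249, 256 and 352. When 1 library at a time was left out, the counts were 558 to 623 higher, 643 to 773 lower and 898 to 996 differing genes, and KDM4C kept its call at -1.43 to -1.39. With a replicate block the counts were 580, 693 and 950, or 427, 637 and 929 with GC adjustment, against 427, 638 and 928 without the block. Deviations of libraries with the same number had a mean correlation of 0.02 over 9 pairs, against -0.01 for the 18 other pairs. These means are tied, since deviations in a group sum to 0. Between Scramble and Si-KDM4C#1 the same-number pairs had 0.05, 0.02 and 0.05, and the others -0.06 to 0.01. Same-number pairs of Scramble and Si-KDM4C#2 had 0.06, 0.01 and 0.03, and those of the siRNAs -0.04, 0.03 and -0.04. Correlations were thus small, and whether libraries were paired was not settled. Of 112 genes in the text, 95 had the same call in all of those in which they were tested, of 19 settings that changed the values, the model or the libraries, and 0 changed sign. Settings that changed a limit alone were not followed for these genes, but of 128 calls among the genes picked by the naming rule, 87 passed when the fold change was tested against 2. Calls lost after GC adjustment or quantile normalization were those of UHRF1, HMGA1, TUBB, DDIT3, SDF2L1, MT2A, CDKN1A, ZMAT3, LIG4, CLSPN, DUSP1, ETV4, MVD, RPS21 and HKDC1, and the cause was not tested. IER3 gained a call with GC adjustment, at -1.02. MDM2 passed the limit in some settings, at 1.01 without Scramble replicate 1 and 1.05 without Si-KDM4C#1 replicate 1.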
